A study of Mus musculus with 4 samples.

Results

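The genes described here are 9 genes of megakaryocytes and platelets: Pf4, Ppbp, Itga2b, Itgb3, Gp1ba, Gp1bb, Gp9, Vwf and Treml1. They were read through the probe sets of the deposited value table that are annotated to exactly 1 of these symbols, and 8 of the 9 genes had such a probe set, out of 18193 genes in all. Itgb3 and Gp1bb had 2 probe sets each and the others 1, which makes 10 of 45037 probe sets. Gp1ba was not analysed here. The list was chosen by the measured values of Pf4 and Ppbp, which are far highest on 1 array, long bone area replicate 2. The values of these 2 genes are therefore a description with no test.

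Expression was measured on arrays in cells sorted from the bone marrow of adult recipient mice of the NOD/SCID type (strain label NOD.CB17-Prkdc scid/J), whose scid mutation blocks the formation of mature B and T cells. All groups share this strain and the same sort, Lin- CD45- CD31- Sca1- CD51+, which the submitters call osteoblast cells. CD51 is the integrin alpha v chain. CD45 marks blood cells and CD31 marks endothelium and platelets, so the sort was set to remove both. The material came from the trabecular bone area or from the long bone area, with 2 arrays per area called biological replicates. The labels do not say how many mice stand behind an array, whether they were pooled, what was given to the recipients or whether the replicates are separate mice, and p-values then reflect no more than the spread among these 4 samples. The design sets one area against the other.

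Megakaryocytes are the large marrow cells that shed platelets. They fill alpha granules with chemokines such as Pf4 and the precursor encoded by Ppbp, and with von Willebrand factor, and they carry the adhesion receptors that platelets use at a wound. The glycoprotein Ib-IX complex, built from Gp1ba, Gp1bb and Gp9 together with Gp5, binds von Willebrand factor, and the integrin alpha IIb beta 3, built from Itga2b and Itgb3, binds fibrinogen. Gata1, Fli1 and Nfe2 are transcription factors of the lineage.

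Values are on the log2 scale and centred, so that 0 is a probe set's median over the 4 arrays, and they carry differences, not levels. A coarse reading of levels came from the step size of the stored numbers, which tells whether the lowest of a probe set's 4 values lay at 8 or above, at 4 to 8 or at 2 to 4 on the log2 scale before centring. Of the 10 probe sets 4 read at 8 or above (both of Itgb3, 1 of Gp1bb and that of Treml1) and 6 at 4 to 8. By the same reading 6 of 18 osteoblast probe sets lay at 8 or above and 11 at 4 to 8, and of 8 probe sets of the measured sorting antigens Itgav, Ptprc and Pecam1 2 lay at 8 or above. Whether a gene is on or off cannot be read from these bands.

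Long bone area replicate 2 stood apart from the other arrays. On it 202 genes (1.11%) lay at least 1 log2 unit, or 2-fold, above each of the other 3 arrays, against 56, 5 and 23 genes on trabecular replicates 1 and 2 and long bone replicate 1. Its Gapdh control, taken as the 5' probe set less the 3' one, which falls when transcripts are broken or copied short, was at -1.16, and at -0.09 to 0.31 on the others. The Actb control was -0.04, within the range of the others (-0.07 to 0.44). The part of these signs in the results below was not tested.

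Pf4, platelet factor 4, is an abundant alpha granule chemokine that binds heparin. It was at -0.01 and 0.01 in the trabecular area and at -0.09 and 4.37 on long bone replicates 1 and 2. The first 3 arrays lay within 0.092 of each other, and long bone replicate 2 stood 4.36 above the highest of them, a 20.5-fold difference. This was the largest such height of all 18193 genes, and rank 2 of the 45037 single probe sets. The number steps put the lowest of the 4 arrays at a log2 level of 4 to 8, which places long bone replicate 2 between 8.45 and 12.5 where that reading holds.

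Ppbp encodes pro-platelet basic protein, from which neutrophil-attracting chemokines are cut, and it is the direct chromosomal neighbour of Pf4. It was at 0.08 and -0.31 in the trabecular area, and at -0.08 and 2.25 in the long bone area. Long bone replicate 2 was again alone, 2.16 or 4.48-fold above the next array, which ranked 20 of 18193 genes. The other 3 arrays spread over 0.398, more than those of Pf4 did. After quantile normalization the height was 3.01 for Pf4 and 1.43 for Ppbp, and long bone replicate 2 was still the highest array for both.

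Pf4 and Ppbp were the members that chose the list. The 250 bases before the start of each gene are printed here with those of Itga2b, the classical marker gene of the lineage, which was less than 2-fold above the next array. They are RefSeq sequences of the build GRCm38.p6, printed 5′ to 3′ on the strand of the gene, and lie at chr5:90772185-90772434 (plus strand) for Pf4, chr5:90768268-90768517 (plus strand) for Ppbp and chr11:102469884-102470133 (minus strand) for Itga2b. Capitals mark matches to 3 motifs, each searched on both strands. The first is AGGAAG, a core that factors of the ETS family such as Fli1 recognise. The next is AGATAA, which factors of the Gata1 family recognise. The last is TATAAA, the box that places the start of transcription in some promoters.
Pf4: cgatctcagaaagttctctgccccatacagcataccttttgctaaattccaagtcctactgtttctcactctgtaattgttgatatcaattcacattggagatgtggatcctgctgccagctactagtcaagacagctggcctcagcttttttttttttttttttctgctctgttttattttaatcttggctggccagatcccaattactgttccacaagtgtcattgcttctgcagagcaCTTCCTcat
Ppbp: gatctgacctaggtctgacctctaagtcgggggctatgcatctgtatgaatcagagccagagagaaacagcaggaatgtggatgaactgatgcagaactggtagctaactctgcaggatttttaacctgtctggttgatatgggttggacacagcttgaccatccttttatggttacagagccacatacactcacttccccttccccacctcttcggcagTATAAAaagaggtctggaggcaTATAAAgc
Itga2b: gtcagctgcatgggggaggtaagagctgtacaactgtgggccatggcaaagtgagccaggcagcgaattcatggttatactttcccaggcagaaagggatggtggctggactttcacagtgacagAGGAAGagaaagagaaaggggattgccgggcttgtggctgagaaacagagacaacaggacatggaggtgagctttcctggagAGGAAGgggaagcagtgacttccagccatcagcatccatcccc

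In the Pf4 window the capitals are CTTCCT, the reverse complement of AGGAAG, at 9 to 4 bases before the start. The Ppbp window holds TATAAA at 30 to 25 and again at 8 to 3 bases before the start, and no AGGAAG. Itga2b has AGGAAG at 125 to 120 and at 43 to 38 bases. No match overlapped another one. Of the 9 genes 7 matched an entry of the promoter table, all but Itgb3 and Vwf. Among the 7, AGGAAG was found in Pf4, Itga2b, Gp1ba and Gp9, TATAAA in Ppbp and AGATAA in 0. Over all 32851 windows of this length 29.5% held AGGAAG, 9.99% AGATAA and 12.4% TATAAA. Only these exact letters were searched, so a site spelled in other letters was not counted. A match is a string of letters, and the arrays did not measure binding.

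**Figure D1:**
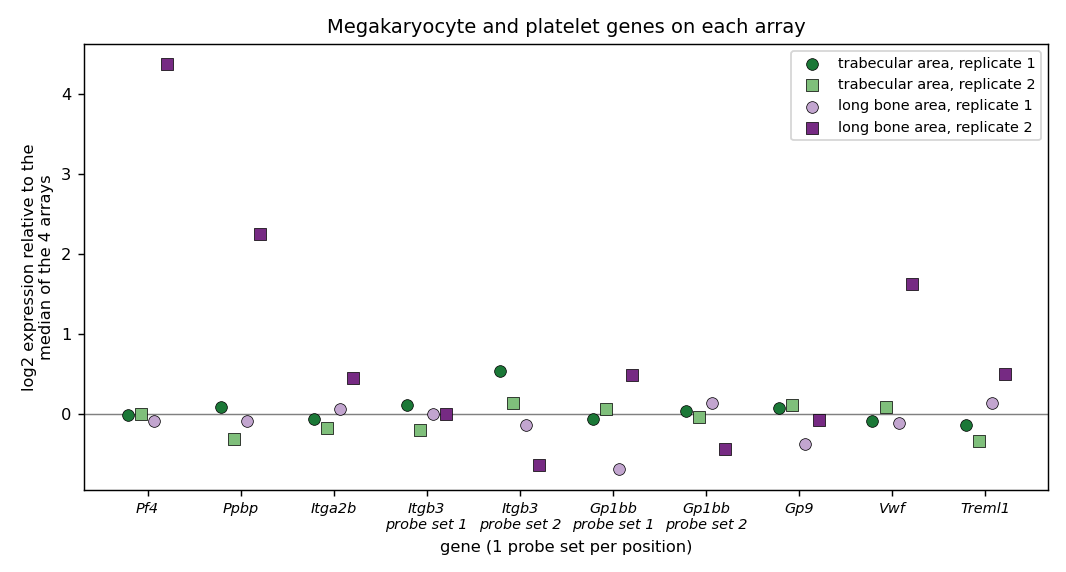
Centred log2 value (vertical axis, 0 being the 4-array median) for each of the 10 probe sets (horizontal axis), with 1 point per array, green for the trabecular and purple for the long bone area. Pf4 at 4.37, Ppbp at 2.25 and Vwf at 1.62 stand alone on long bone replicate 2, while all other points lie between -0.69 and 0.54.

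Vwf encodes von Willebrand factor, the adhesive protein stored in alpha granules of platelets and also made by endothelium. It was at -0.09 and 0.09 in the trabecular area and at -0.11 and 1.62 in the long bone area. Long bone replicate 2 was 1.53 above the next array, 2.89-fold, rank 77 of 18193, and the other 3 arrays lay within 0.206. With Vwf, 3 of the 8 measured members were at least 2-fold above all other arrays there, a count that the choice by Pf4 and Ppbp in part fixed, beside 1.11% of all genes. No member lay close to that mark of 1 log2 unit, the nearest being Vwf above it at 1.53 and Itga2b below it at 0.39.

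Endothelium makes Vwf too, and its markers were read on the same array. Of 16 endothelial markers 9 were highest on long bone replicate 2, beside 35.2% of all genes. By 1 log2 unit or more 0 were so, beside 1.11%. Their values on long bone replicate 2 ran from -0.44 to 0.58. Cdh5, the adherens junction cadherin of endothelium, was at -0.10 there and Pecam1, which encodes the CD31 of the sort, at -0.06. Plvap, a protein of endothelial diaphragms, had the largest height of the list (0.58 on that array against 0.00, 0.00 and -0.18), and Tie1 the lowest value, at -0.44. The list does not hold Vwf itself, or Esm1, which is counted below with the reticular stroma markers.

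Itga2b encodes the alpha IIb chain, CD41, the classical surface marker of megakaryocytes. Its values were -0.06 and -0.18 in the trabecular area and 0.06 and 0.45 in the long bone area. Both long bone arrays lay above both trabecular ones, and long bone replicate 2 stood 0.39 above the next array, 1.31-fold. Treml1, a receptor kept in alpha granules that reaches the surface of activated platelets, had the same order. It was at -0.14 and -0.33 in the trabecular area and at 0.14 and 0.50 in the long bone area, and its height was 0.36.

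Itgb3, the beta 3 chain, pairs with Itga2b in platelets and with the alpha v chain CD51, the antigen of the sort, in osteoclasts and other cells. Its mean over 2 probe sets was 0.33 and -0.03 in the trabecular area and -0.07 and -0.32 in the long bone area, so that long bone replicate 2 was the lowest array. The probe sets disagreed, and long bone replicate 2 was the lowest array on 1 of them. One was at 0.11, -0.20, 0.00 and 0.00 on trabecular replicates 1 and 2 and long bone replicates 1 and 2, and the other at 0.54, 0.14, -0.14 and -0.64. Itgav, the alpha v gene itself, was within 0.11 of its median on all arrays (-0.11, -0.01, 0.03 and 0.11).

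The measured genes of the glycoprotein Ib-IX complex did not stand out on long bone replicate 2. Gp9 was at 0.08 and 0.11 in the trabecular area and at -0.38 and -0.08 in the long bone area, where both arrays were lower. Gp1bb, over 2 probe sets, was at -0.01 and 0.01 against -0.27 and 0.02. These probe sets ran in opposite directions on long bone replicate 2, with 0.48 for one and -0.44 for the other. Another probe set, shared by Gp1bb and its neighbour Septin5 and so no member, was at -1.33 there. The signal of the 2 genes cannot be told apart on it. Gp5, the remaining measured chain of the complex, was at 0.03 and -0.24 against -0.03 and 0.04.

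The members differed widely in height on the array that chose them, which is a description with no test. Pf4, Ppbp and Vwf were at 4.36, 2.16 and 1.53. The other 5 were lower, Itga2b at 0.39, Treml1 at 0.36, Gp1bb at 0.01, Gp9 at -0.19 and Itgb3 at -0.65. Itga2b and Treml1 differ by less than the 0.235 and 0.469 over which their other arrays spread. Of the 6 members that did not choose the list 4 were highest on long bone replicate 2, beside 35.2% of all genes. A height of at least 2-fold was reached by 1 of the 6, beside 1.11%.

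Between the areas, none of the 6 genes that could be tested passed. With limma and Benjamini-Hochberg adjustment 0 of 6 had an adjusted p under 0.05, and neither did any of the 18193 genes (0.0%) or of the 45037 probe sets (0.0%). At an unadjusted p under 0.05 there was 1 of the 6, Treml1, beside 15.5% of all genes. Treml1 was lower in the trabecular area, with a log2 difference of -0.55 (SE 0.18, 95% interval -1.03 to -0.08, limma adjusted p = 0.291), a mean of -0.23 ± 0.14 against 0.32 ± 0.25 (SD, n = 2 each). With 2 arrays against 2 an exact permutation test cannot go below p = 0.333.

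The difference, trabecular minus long bone area, was -0.37 for Itga2b (95% interval -0.85 to 0.10, limma adjusted p = 0.388) and -0.76 for Vwf (-2.33 to 0.82, limma adjusted p = 0.564). Both are lower in the trabecular area, Itga2b without overlap and Vwf with overlap. In the other direction Itgb3 differed by 0.34 (-0.15 to 0.84, limma adjusted p = 0.428), Gp9 by 0.32 (-0.08 to 0.73, limma adjusted p = 0.382) and Gp1bb by 0.12 (-0.28 to 0.53, limma adjusted p = 0.720). The 2 Itgb3 probe sets differed in direction, with 0.73 on one and -0.04 on the other. Of the 6 genes 3 were lower in the trabecular area, beside 45.4% of all genes, and 3 higher. The areas did not overlap for 4 of the 6, beside 51.4% of all genes. These were 2 lower ones, beside 21.4%, and 2 higher ones, beside 29.9%. The median difference of the 6 was -0.12, beside 0.03 over all genes, and it turned to 0.17 without long bone replicate 2, beside 0.05 over all genes.

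The values of Pf4, Ppbp and Vwf between areas rested on long bone replicate 2. The difference was -2.14 for Pf4 and -1.20 for Ppbp with all arrays, and 0.09 and -0.03 without that array. For Vwf it was -0.76 and 0.11. Without long bone replicate 1, in a fit where the single long bone array is assumed to vary as the trabecular pair does, Vwf was at -1.62 with a limma adjusted p of 0.0358. In that fit 1603 genes (8.81%) passed. Treml1 (-0.37), Itga2b (-0.18), Gp9 (0.47), Itgb3 (0.22) and Gp1bb (0.27) kept their signs without long bone replicate 2, while Gp1bb turned to -0.024 without long bone replicate 1.

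**Figure D2:**
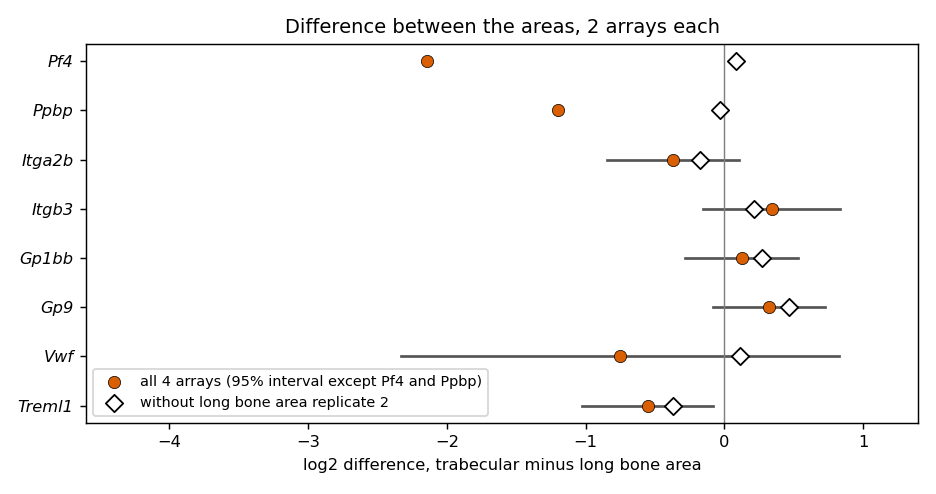
Log2 difference, trabecular minus long bone area (horizontal axis), for each measured gene (rows). Orange points use all 4 arrays, with 95% limma intervals as bars except for Pf4 and Ppbp, and open diamonds leave out long bone replicate 2, which moves Pf4 from -2.14 to 0.09 and Vwf from -0.76 to 0.11.

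Pf4 and Ppbp lie side by side in a cluster of CXC chemokine genes on mouse chromosome 5, and the neighbours of the cluster were read on the same arrays. Cxcl5, which lies next to Ppbp and is a neutrophil attractant, was at -0.04, -0.04, 0.04 and 0.09 on trabecular replicates 1 and 2 and long bone replicates 1 and 2. Cxcl15 on the other side, past Cxcl3, was at 0.06, -0.31, -0.06 and 0.12. Neither stood out on long bone replicate 2. Cxcl1 did so by 1.06 (-0.17 and -1.25 against 0.17 and 1.23). Cxcl3 and Cxcl2, inflammatory chemokines that attract neutrophils, were not highest there. Cxcl3 was at 1.19, -1.02, -1.90 and 1.02 and Cxcl2 at 0.65, -0.42, -2.79 and 0.42, both lowest on long bone replicate 1. The 5 genes before Cxcl5 (Alb, Afp, Afm, Albfm1 and Rassf6) and the 3 after Cxcl2 (Mthfd2l, Epgn and Ereg) were between -0.37 and 0.33 on all arrays. Beside Pf4 and Ppbp, Cxcl1 was the one gene among these 15 that lay at least 2-fold above the other arrays on long bone replicate 2.

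**Figure D3:**
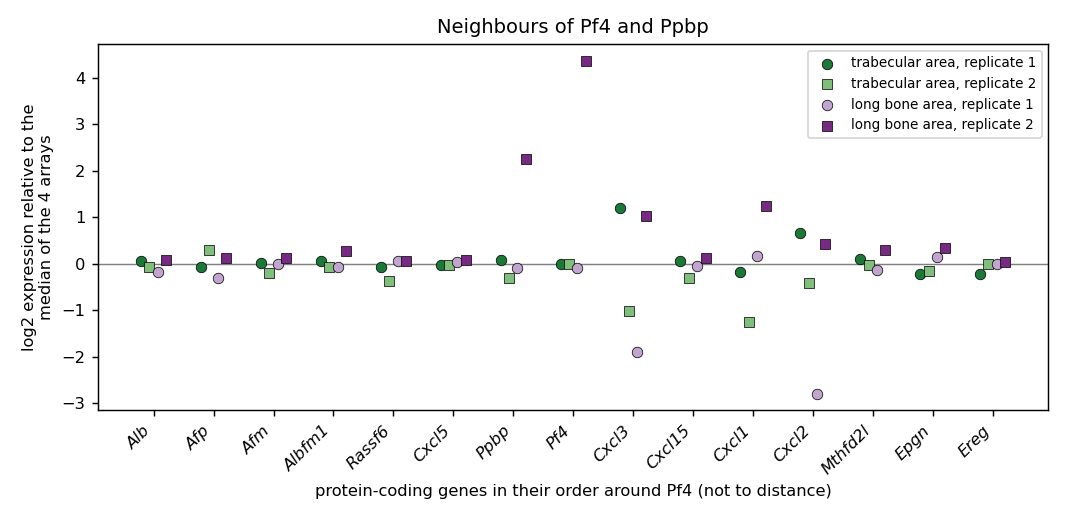
Centred log2 value (vertical axis, 0 being the 4-array median) for 15 protein-coding genes in their order around Pf4 (horizontal axis, not to distance), with 1 point per array. Ppbp (2.25) and Pf4 (4.37) stand out on long bone replicate 2, and Cxcl5 beside them does not (0.09).

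Most of the listed CXC chemokines were highest on that array, some by a small margin such as Cxcl5 and Cxcl15 (0.06 each). Of 12 listed CXC chemokines other than Pf4 and Ppbp 10 were highest on long bone replicate 2, beside 35.2% of all genes, and 4 by at least 2-fold (Cxcl1, Cxcl10, Cxcl12 and Cxcl14), beside 1.11%. The 12 include the 5 of the cluster, and Cxcl12 is also a reticular stroma marker. Cxcl10, an interferon-induced T cell attractant, was at -0.01, 0.01, -1.73 and 2.34. Cxcl12, which holds blood stem cells in the marrow, was at 0.19, -1.35, -0.19 and 1.89, and Cxcl14 at -0.26, -0.61, 0.26 and 1.36. None of the 12 had an adjusted p under 0.05 between areas in limma, beside 0.0% of all genes. At an unadjusted p under 0.05 there were 2 of the 12, beside 15.5% of all genes.

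Further genes of megakaryocytes and platelets did not follow Pf4 as a group. Of 83 other genes on 5 lists 77 were measured, and the other 6 were not analysed here. Of the 77, 30 (39.0%) were highest on long bone replicate 2, beside 35.2% of all genes, and 31 were lowest there, beside 32.4%. A height of at least 2-fold was reached by 3 of the 77, beside 1.11% of all genes. The median of the 77 on that array was -0.03. Between areas 0 of the 77 were called in limma and 13 (16.9%) had an unadjusted p under 0.05, 8 higher and 5 lower in the trabecular area, beside 15.5% of all genes. The lowest adjusted p among them was 0.171.

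Of 17 platelet receptors, 9 were highest on long bone replicate 2, beside 35.2% of all genes, and 1 by at least 2-fold, beside 1.11%. F2r, the thrombin receptor PAR1, which in mice is found on fibroblasts and endothelium more than on platelets, was at -0.21, -0.22, 0.09 and 1.98. Gp6, the collagen receptor of platelets, was at -0.11, 0.00, 0.00 and 0.13, and Selp, P-selectin of alpha granules, at 0.09, -0.17, -0.11 and 0.37. The tetraspanin Cd9 had its lowest value there, -0.74 against 0.47, 0.22 and -0.22. The median of the list on that array was 0.04.

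Among 16 platelet granule proteins other than the members 1 was highest on long bone replicate 2 by at least 2-fold, beside 1.11% of all genes. The list median there was 0.14. The anticoagulant cofactor Pros1 was highest by 1.12 (-0.42, -0.75, 0.42 and 1.55) and the growth factor Pdgfa by 0.74 (-0.07, -0.36, 0.07 and 0.81). Coagulation factor F5 was lowest on it, at -1.26 against -0.03 to 0.29. Of the 18 genes of granule formation and platelet signalling 10 were lowest on that array, beside 32.4% of all genes, with a median of -0.28. Its highest member, the G protein subunit Gng11, was at 1.01 there, and its lowest, the secretion protein Stxbp2, at -1.10.

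In the proplatelet cytoskeleton list 8 of 11 genes were lowest on long bone replicate 2, beside 32.4% of all genes, with a median of -0.31. Tubb1, the beta 1 tubulin of platelets, was at -0.01, -0.39, 0.01 and 0.01. Myl9, a myosin light chain that smooth muscle and stromal cells also make, was the exception at -0.06, 0.06, -0.12 and 2.07. The filamin gene Flna was at -1.08 on that array.

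The transcription factors of the lineage had no gene at the 2-fold mark on long bone replicate 2. Gata1 was at -0.08 and 0.17 against -0.23 and 0.08, and Nfe2, needed for platelet release, was lowest on long bone replicate 2, at 0.62 and 0.14 against -0.14 and -1.10. The homeobox gene Hhex was lower still on that array, at -1.23 against 0.73, 0.51 and -0.51. Fli1 was at 0.07 and 0.19 against -0.05 and -0.73. Of the 15 factors 7 were highest on that array, beside 35.2% of all genes. The largest height was 0.46, for the Gata1 partner Zfpm1. In bulk samples such as these, fewer cells of a type and less RNA per cell cannot be told apart.

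Markers of some other cells were high with Pf4 on that array. All 10 reticular stroma markers were highest on long bone replicate 2, beside 35.2% of all genes, and 9 by at least 2-fold, beside 1.11%. The list median was 1.71 there and 0.10, -0.58 and -0.12 on the other arrays. Esm1 (4.71), Adipoq (4.49) and the pericyte receptor Pdgfrb (1.90) led the list. It was chosen with earlier results of these data known and holds the genes of rank 2 and 3 by height, so its counts are no test. Of the 10 erythroid markers 7 were highest on long bone replicate 2, beside 35.2% of all genes, with a median of 0.24. A height of at least 2-fold was reached by 1 of them, beside 1.11% of all genes, and 1 was lowest there. Alas2, the haem enzyme of red cell precursors, was at 1.73 against 0.37, -0.37 and -0.44, and the anion exchanger Slc4a1 at 0.84. Car1, with the lowest height of the list, was at 0.11 against -0.39, 0.72 and -0.11. Of 10 macrophage markers 5 were highest there and 0 lowest, beside 35.2% and 32.4% of all genes, with a median of 0.17. The complement gene C1qb was at 1.12 against 0.20, -1.35 and -0.20, and the growth factor receptor Csf1r at -0.08. Cd68, with the lowest height of the list, was at -0.26 against 0.73, 0.26 and -0.32. Of 9 osteoclast markers, cells that also carry Itgb3, 4 were highest on that array, beside 35.2% of all genes, and Mmp9 was at -1.56. Of 7 stem and progenitor markers 6 were highest there, by 0.66 at most, and of 11 neutrophil markers 1, each beside 35.2%. Of 7 mast cell and basophil markers 2 were highest there, beside 35.2%. Of 5 other alpha v and beta 3 integrin genes 3 were, beside the same share, led by Itgb5 at 1.18. Ptprc, which encodes the CD45 of the sort, was at -0.50 there against -0.49, -0.10 and 0.59.

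Of the 9 measured osteoblast markers 5 were highest on long bone replicate 2, beside 35.2% of all genes. Their median was 0.78 there, 0.70 on long bone replicate 1, and -0.49 and -0.41 on trabecular replicates 1 and 2. The trabecular mean was the lower one for 9 of these 9 genes, beside 45.4% of all genes. In limma 6 of the 9 had an unadjusted p under 0.05, beside 15.5% of all genes. After adjustment 0 were called, beside 0.0% of all genes. The part of any of these cells in the Pf4, Ppbp and Vwf values was not tested.

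**Figure D4:**
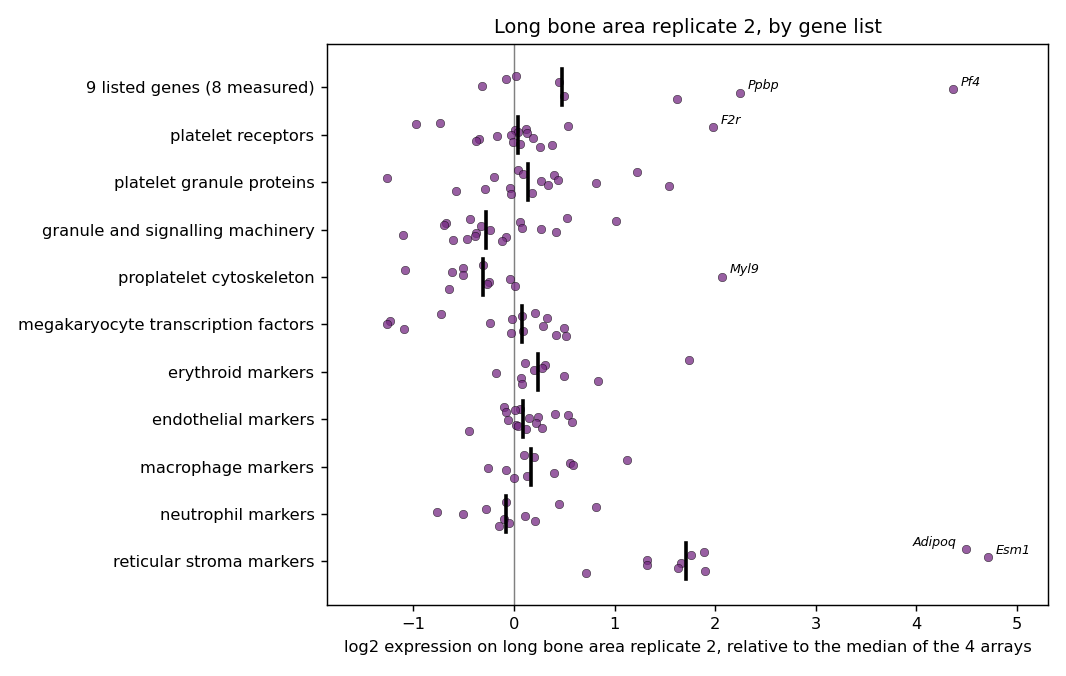
Centred log2 value on long bone area replicate 2 (horizontal axis) for each gene (points) of 11 lists (rows), with the list median as a black bar. Pf4 (4.37) and Ppbp (2.25), chosen for their values on this array, lie above every gene of the other 5 megakaryocyte lists. The next gene of those lists is Myl9 (2.07). Their medians run from -0.31 to 0.14, and the reticular stroma markers have a median of 1.71.

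The genes most like Pf4 over the 4 arrays, by Euclidean distance between the values, were Aldh1a2 (distance 1.07), Lhfp (1.35), Id3 (1.42), Adipoq (1.47) and Vegfc (1.49). Ppbp ranked 22 from Pf4, at 2.15, and Vwf 76, at 2.74. Those nearest to Ppbp were C1ra (0.0753), Pcdhb9 (0.136), Ltbp2 (0.204), Tnfsf11 (0.232) and Rrad (0.267), with Vwf at rank 63. From Ppbp, Pf4 ranked 5090, at the same distance of 2.15. None of these 10 is on the 6 megakaryocyte and platelet lists. The distance weighs size and rests on 4 arrays, where 1 array sets most of it.

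By height on long bone replicate 2, the 10 leading genes of the whole table were Pf4 (4.36), Esm1 (4.04), Adipoq (3.77), Aldh1a2 (3.45), Fstl1 (3.33), Id3 (3.16), Lhfp (3.01), Serping1 (2.96), Vegfc (2.95) and Kng1 (2.79). Pf4 was the only member of the 9 genes among them, and Esm1 and Adipoq are on the reticular stroma list. Pf4 differed from Esm1 and Adipoq on the other 3 arrays. Esm1 was at 0.68, -1.14 and -0.68 and Adipoq at 0.72, -1.10 and -0.72, while Pf4 stayed within 0.092.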

How the data were processed

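Per the labels' protocols, RNA was extracted, amplified and labelled with biotin for the arrays. A human array is named in the design description, whereas the probe sets carry the identifiers and annotation of a mouse array and were used as such. The deposited values are log2 expression. RMA appears, without a version, among the tools of the submitters' processing notes. Every one of the 45101 probe sets has a 4-array median of 0, so the values were centred, with software not given in the sources used here. Centring keeps differences and removes levels, and RMA compresses folds of dim genes.

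Without 64 controls 45037 probe sets remained. Of these 34945 have 1 gene, 932 several and 9160 none in the annotation, and a gene is the mean of its own probe sets. The area comparison used limma's lmFit and eBayes without a trend (version 3.58.1, R 4.3.3), leaving 2 residual degrees of freedom, fitted on the whole table and adjusted with Benjamini-Hochberg over all genes or probe sets, after a check on simulated data. Height is the value on long bone area replicate 2 minus the highest other array. In the alternative with a trend the mean is that of centred values, not a level. Between any pair of arrays 65 to 107 probe sets held identical values.

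The members and the gene lists were chosen with earlier results of these data known. Named genes were drawn from the members, the 10 largest heights, the 5 nearest genes to Pf4 and to Ppbp, and defining lineage genes. From each list up to 3 genes with the largest height and the gene with the lowest could be named. Not every list has its lowest gene named, and some lists are given as counts only. Neighbours were named by position, and Fli1 because its motif was searched, both after values were seen. The alternatives tried were other normalizations, gene summaries and variance models, a filter for bright probe sets, replicate blocks and leaving out single arrays.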

Additional observations from a re-analysis of the deposited data

How the results depend on the processing

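The median difference of the 8 measured members was -0.46 with all arrays and between -0.65 and 0.10 with 1 array left out, turning to 0.10 without long bone area replicate 2. Over bright probe sets only it was 0.10, but that filter leaves only Itgb3 (0.34), Gp1bb (0.10) and Treml1 (-0.55). The 0.10 is then the value of Gp1bb, and Pf4, Ppbp, Vwf, Itga2b and Gp9 have no part in it. The median over the 8 includes Pf4 and Ppbp, whose values chose the list, and is a description with no test. Over the 6 other members it was -0.12 with all arrays, beside 0.03 over all genes. With 1 array left out Gp1bb ranged from -0.024 to 0.27, Pf4 from -4.37 to 0.085 and Vwf from -1.62 to 0.11, each turning sign, Gp1bb without long bone area replicate 1 and Pf4 and Vwf without replicate 2. Ppbp, Itga2b, Itgb3, Gp9 and Treml1 kept their sign under the alternatives run, several of which (replicate blocks and variance models) cannot change a difference. After quantile normalization of the centred values, which evens out the wide spread of long bone area replicate 2, the height was 3.01 for Pf4 and 1.43 for Ppbp. With array medians subtracted it was 4.33 and 2.15. Leaving out another array, chosen after seeing the data, can only keep or raise a height and is no test of it (4.36 to 4.37 and 2.16 to 2.33). The count of called probe sets was 0. It was 281 where the prior variance could follow a trend (40 genes), and 1 under ordinary t statistics (also 1 gene). With 1 array left out, an area holds a single array, whose spread is assumed from the pair of the other area. Calls from such fits cannot show whether the areas differ, so their counts are not given. The replicate block gave 0 called probe sets, as without it, and changed no member's call. Same-numbered arrays deviated with a correlation of -0.18 over probe sets, so the numbers are not shown to pair samples, and the crossed pairing, chosen after seeing the data, gave 0 called probe sets too. With 2 arrays per area, the number of arrays limits the precision of every value.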
